A study of Caenorhabditis elegans with 2 samples.

Results

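Autosomal regions near the 5′ ends of genes on both strands, at what are called divergent promoters, numbered 455. They were among the 11555 regions left in the joint ce11 list once the strongest of any overlapping regions had been kept. The full list held 12454 regions. A region belonged to this set when its summit was on chromosome I, II, III, IV or V and more than 500 bp from every annotated tRNA, snoRNA, snRNA, miRNA and piRNA gene. Its summit also had to lie between 1000 bp upstream and 100 bp downstream of the 5′ end of a protein-coding gene on the plus strand and of one on the minus strand. Signal entered the choice only in deciding which of any overlapping regions was kept, and the rest of the rule used positions. The 53 of these regions that were also in the optimal list thresholded by the authors on the irreproducible discovery rate are referred to as called, and the remaining 402 as the other members.

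Late embryos of the hermaphrodite Caenorhabditis elegans strain OP493 were profiled by chromatin immunoprecipitation and sequencing with an antibody against GFP. The strain's genotype was unc-119(tm4063) III; wgIs493, and wgIs493 is a transgene for NPAX-4 with a GFP-FLAG tag at its C terminus. Whole organisms were collected 4 h after synchronisation by egg bleaching, in 2 biological replicates of this single condition, so both replicates shared the transgene and the unc-119 allele. The libraries came from whole embryos, so a region's signal is not assigned to a cell type. The control library was not analysed here, and comparisons were made between sets of regions.

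NPAX-4 is related to the Pax family of transcription factors, which share a DNA-binding domain called the paired domain. At a divergent promoter, adjacent genes on opposite strands are transcribed away from each other, so a single stretch of DNA is upstream of both. In C. elegans many messages receive a spliced leader at their 5′ end, and an annotated 5′ end can therefore lie downstream of the position where transcription starts.

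The stretches below are shown because they lie at the 6 called regions of highest signal on chromosomes II, III, IV and V. Each is the plus strand of the ce11 assembly, read 5′ to 3′ from the RefSeq WBcel235 sequence, up to 75 bp on each side of the summit and trimmed to the stretch between the 5′ ends of the genes. Capitals mark, on either strand, any of the 12 words of 6 bases that were more frequent in called than in other windows in the test reported further on.
ears-2/uncp-18: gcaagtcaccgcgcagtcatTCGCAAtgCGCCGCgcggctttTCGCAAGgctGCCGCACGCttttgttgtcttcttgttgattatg
mlcd-1/idhg-1: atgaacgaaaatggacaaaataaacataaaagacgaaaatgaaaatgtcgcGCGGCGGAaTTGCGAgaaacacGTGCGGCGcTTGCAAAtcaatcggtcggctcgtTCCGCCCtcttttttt
ecps-1/atx-2: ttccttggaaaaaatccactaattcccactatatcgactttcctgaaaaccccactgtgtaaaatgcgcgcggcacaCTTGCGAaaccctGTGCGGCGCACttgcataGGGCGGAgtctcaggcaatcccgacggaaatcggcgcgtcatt
nmad-1/hach-1: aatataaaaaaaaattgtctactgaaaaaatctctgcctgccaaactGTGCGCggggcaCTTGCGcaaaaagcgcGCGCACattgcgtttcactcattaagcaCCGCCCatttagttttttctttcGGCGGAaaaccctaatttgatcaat
B0495.9/sre-1: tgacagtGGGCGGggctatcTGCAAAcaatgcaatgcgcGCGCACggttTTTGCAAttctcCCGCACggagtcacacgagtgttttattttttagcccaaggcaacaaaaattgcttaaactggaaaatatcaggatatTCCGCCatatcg
E04F6.6/pcrg-1: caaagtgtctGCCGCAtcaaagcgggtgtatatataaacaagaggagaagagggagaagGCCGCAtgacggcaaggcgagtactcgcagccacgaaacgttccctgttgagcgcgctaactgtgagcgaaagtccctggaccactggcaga
The intervals were chrIV:390469-390554 for ears-2/uncp-18, chrIII:4568675-4568796 for mlcd-1/idhg-1 and chrIII:10461232-10461382 for ecps-1/atx-2. They were chrIII:5555066-5555216 for nmad-1/hach-1, chrII:7708719-7708869 for B0495.9/sre-1 and chrII:7200171-7200321 for E04F6.6/pcrg-1. In each name the minus-strand gene comes first. The annotation placed the E04F6.6/pcrg-1 summit inside mrpr-1, a noncoding RNA gene, and the other 5 stretches inside no annotated noncoding gene. The number of distinct words among the 12 was 6 for ears-2/uncp-18, 8 each for mlcd-1/idhg-1 and ecps-1/atx-2, 4 for nmad-1/hach-1, 6 for B0495.9/sre-1 and 1 for E04F6.6/pcrg-1.

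The first comparison asked how often regions at divergent promoters were called. Called regions were 53 of 455 (11.6%, interval 8.85 to 14.96%) at divergent promoters, against a background of 2.95% of all 11555 regions and 1.42% of the 9157 autosomal regions away from small RNA genes. Of 1944 autosomal regions within the same reach of a 5′ end on 1 strand only, 50 were called (2.57%, interval 1.91 to 3.38%). Of 6758 at no promoter, 27 were called (0.40%, interval 0.263 to 0.581%). Divergent promoters held 4.97% of the autosomal regions away from small RNA genes and 40.8% of the called ones. The odds of a call were 4.99 times those at one-way promoters (interval 3.34 to 7.46, likelihood-ratio test of a binomial regression with a logit link over regions, two-sided, p = 2.91e-14). With a reach of 500 bp upstream the odds ratio was 3.23 (p = 5.68e-07, binomial regression), with 36 called and 233 other divergent regions. With GC content and the distance to the nearer 5′ end as covariates the same binomial regression gave 3.39 (interval 2.19 to 5.24, p = 5.09e-08). Regions are not replicates of a condition. These p-values and the 95% intervals treat regions as independent and cover counting error over the regions of the lists only.

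**Figure D1:**
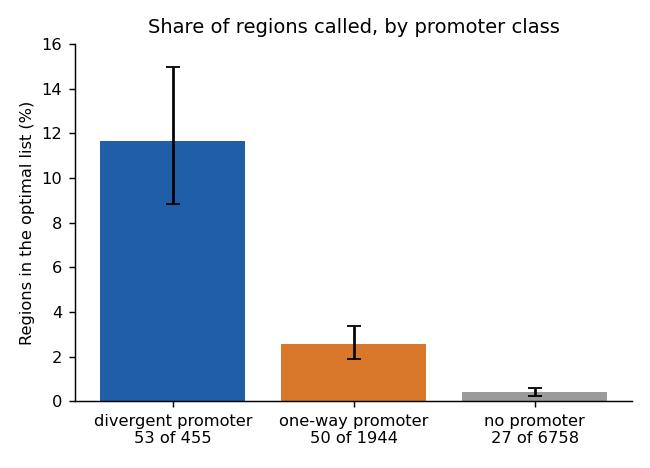
Percent of autosomal regions away from small RNA genes that were in the optimal list (vertical axis, linear from 0) for 3 promoter classes, with exact 95% intervals as error bars. The bar for divergent promoters stands at 11.6%, and its interval from 8.85 to 14.96% does not overlap that of one-way promoters, 1.91 to 3.38%.

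The share called was higher at divergent than at one-way promoters at each distance and in each range of GC content examined, with no test run within them. With the nearer 5′ end within 250 bp, 46 of 347 divergent regions (13.3%) and 23 of 695 one-way regions (3.31%) were called. With it 251 to 1000 bp away, 7 of 108 (6.48%, interval 2.65 to 12.9%) and 27 of 1249 (2.16%, interval 1.43 to 3.13%) were called, and these intervals overlapped. In windows with GC content under 35%, 8 of 168 divergent regions (4.76%) and 7 of 847 one-way regions (0.826%) were called. In windows of 45% or more the counts were 21 of 91 (23.1%) and 18 of 305 (5.90%), and from 40 to 45% they gave 20.5% against 4.79%. From 35 to 40% the shares were 6.19% (interval 2.53 to 12.3%) and 2.20% (interval 1.10 to 3.90%), whose intervals overlapped, whereas those of the other ranges did not. Every autosome held called members: 13 of 100 on chromosome I, 6 of 85 on II, 13 of 106 on III, 10 of 78 on IV and 11 of 86 on V. The intervals of these 5 shares all overlapped, from 2.63 to 14.7% on chromosome II and from 7.11 to 21.2% on chromosome I.

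At the edge of the rule, 35 members had their farther 5′ end 901 to 1000 bp away, and 4 of them were called. Of 38 regions left out because that 5′ end was 1001 to 1100 bp away, 0 were called, which allows a share of up to 7.89% when a count of 0 is read as under 3. Their joint signal had a median of 34.98, against 39.4 for the 35 just inside.

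Between the members and their genes, 454 of 455 pairs were arranged head to head, and no pair of genes occurred at more than 1 region. Called summits lay upstream of both 5′ ends in 52 of 53 regions, and those of the other members in 336 of 402. The exception was Y57E12AL.6/Y57E12AL.1, with the narrowest gap of any called pair, 60 bp, and its summit 8 bp inside Y57E12AL.1. The widest gap was 1353 bp, at nrde-2/atad-3, and 49 of 53 called gaps were under 1000 bp. Neither strand was nearer on the whole: the nearer gene was on the minus strand in 27 called regions and on the plus strand in 26. Both 5′ ends were within 500 bp of the summit in 36 called regions (67.9%) and in 233 other members (58.0%). Of the called summits, 3 lay inside an annotated noncoding gene, at E04F6.6/pcrg-1, dad-1/tre-1 and ril-1/hda-1. The 4 called regions of highest signal were 264, 191, 202 and 125 bp wide in the authors' list, and the other called regions 450 bp. In 34 members more than 1 gene on a strand qualified, and the nearest was taken.

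**Figure D2:**
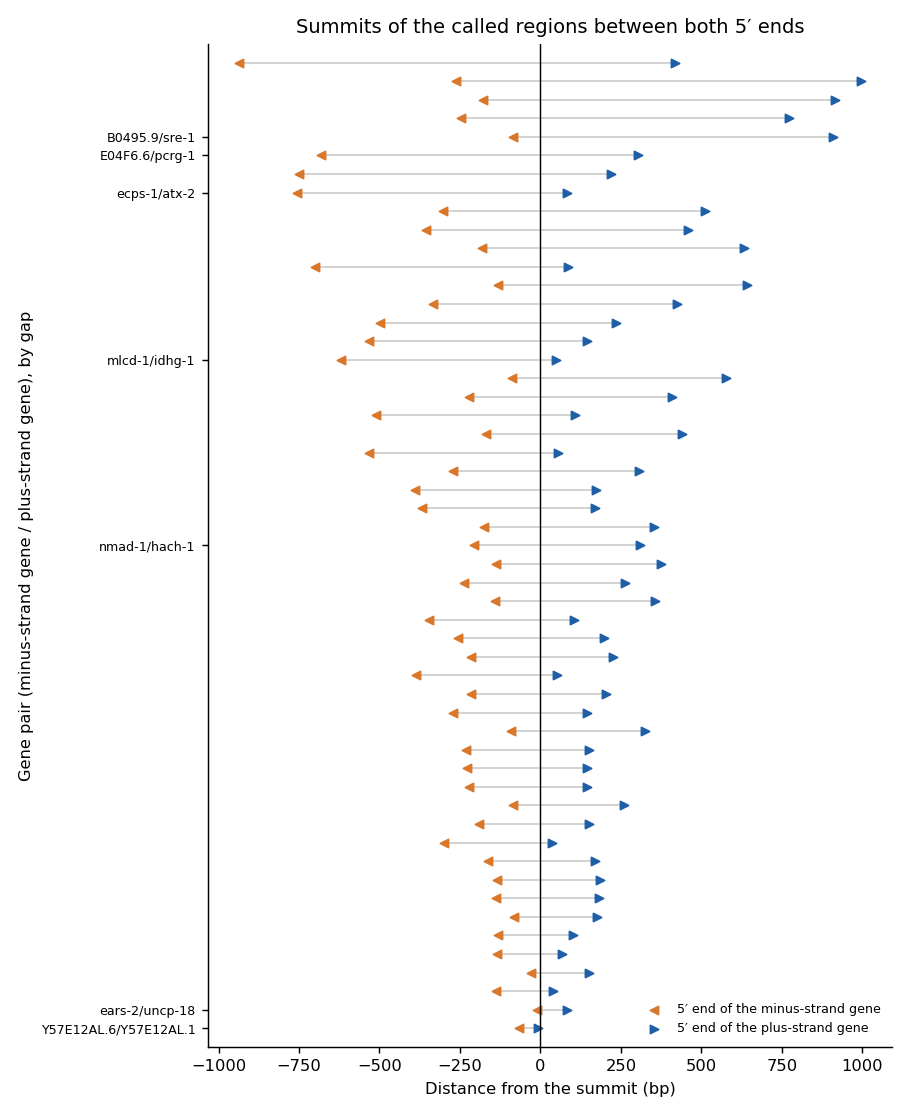
Positions of the minus-strand (left-pointing) and plus-strand (right-pointing) 5′ ends of the 53 called pairs relative to the summit at 0 bp (horizontal axis, bp), with pairs on the vertical axis in order of the gap between their 5′ ends and names given for the pairs with a printed sequence and the pair with the smallest gap. The summit lies between both 5′ ends in every pair but Y57E12AL.6/Y57E12AL.1 at the bottom, whose gap is 60 bp.

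Among 8 features of position and composition, GC content alone passed between called and other members after Benjamini-Hochberg adjustment over the 8, and further features passed in alternative settings given beside them. The windows of 151 bp around called summits had a median GC content of 42.4% (quartiles 39.7 to 47.7%), against 37.1% (31.8 to 42.4%) for the other members. The odds ratio was 2.22 per 10 percentage points (interval 1.55 to 3.17, adjusted p = 6.88e-05, binomial regression over the 455 members). The ranges overlapped: called windows ran from 21.2% GC at Y41D4A.6/Y41D4A.4 to 56.3% at W03C9.5/mex-1, and 8 of 53 were under 35%. Beyond this fit and its use as a covariate, the part of GC content in the calls was not tested. The distance of the summit from the midpoint, as a share of the gap, had a median of 0.192 in called regions and 0.253 in the others, and the binomial regression did not pass (odds ratio 0.830 per 0.1, interval 0.703 to 0.979, adjusted p = 0.0675). That feature did pass in 5 of 8 alternative settings, among them the one with GC content as covariate, with odds ratios from 0.750 to 0.816 and adjusted p from 0.0125 to 0.0315 in the binomial regression. In the same binomial regressions neither distance passed: the median to the farther 5′ end was 356 bp against 436 bp (adjusted p = 0.135), and to the nearer one 146 bp against 130 bp (adjusted p = 0.373). The gap had a median of 516 bp against 586 bp (adjusted p = 0.219, binomial regression), and the observed over expected ratio of CpG 1.44 against 1.31 (adjusted p = 0.106). With GC content as covariate the CpG ratio passed (odds ratio 2.41 per 1, adjusted p = 0.0208, binomial regression), as it did without replicate 1 (1.88, adjusted p = 0.0314). A noncoding gene or pseudogene outside the small RNA classes lay within 500 bp of 6 called and 39 other summits (adjusted p = 0.715, binomial regression), and the distance to small RNA genes had an adjusted p of 0.263. In the settings without a replicate, the 354 highest regions of the remaining replicate's list counted as called, in place of the optimal list. With regions from replicate 2 alone 5 of the 8 features passed, and from replicate 1 alone 4. In the binomial regression of both, shorter distances to the farther 5′ end went with a call, with odds ratios per 100 bp of 0.847 without replicate 1 (adjusted p = 0.0126) and 0.807 without replicate 2 (adjusted p = 0.00289). The gap passed in both as well (0.910 and 0.868 per 100 bp, adjusted p = 0.0314 and 0.00324, binomial regression), and the distance to the nearer 5′ end passed without replicate 2 (0.797 per 100 bp, adjusted p = 0.0398).

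The signal of each region is the value of the authors' peak caller, whose scale is not given in the sources used here, and it set which regions were called, so it is given as a description. Called members had joint signals from 79.1 to 311 with a median of 119, and the other members from 28.7 to 75.5 with a median of 38.3. In replicate 1 the called members ranged from 26.5 to 167 (median 60.6), and in replicate 2 from 30.8 to 141 (median 57.1). All 53 overlapped a region in the list of each replicate, and 40 ranked among the 354 highest regions of both, 354 being the length of the optimal list. Of the 402 other members, 327 overlapped a region of replicate 1 and 309 one of replicate 2, and 241 (59.95%) did so in both. Summits in the replicates were a median of 20 bp apart at called members, with 27 of 53 within 20 bp. At the 241 other members found in both replicates, they were a median of 96 bp apart, with 53 within 20 bp. These contrasts were not particular to divergent promoters. Median summit distances were 25 bp for called and 98 bp for other one-way regions, and 25 and 104 bp at no promoter. Overlap with both replicates was 98% for called and 47.1% for other one-way regions, and 100% and 44.4% at no promoter.

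**Figure D3:**
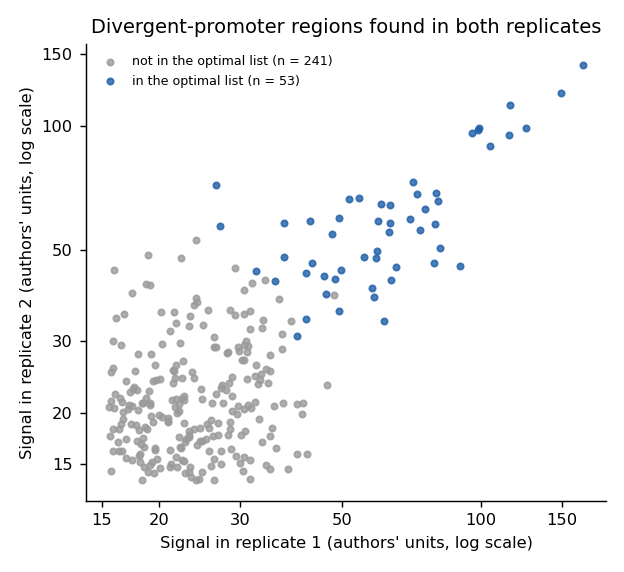
Signal in replicate 1 (horizontal axis) and replicate 2 (vertical axis), both on log scales in the authors' units, for the members that overlapped a region in each replicate's list. The 53 called members (blue) reach 167 in replicate 1 and 141 in replicate 2, and the 241 others (grey) stay at or below 47.9 and 52.8.

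Called members whose ranks differed most between replicates were Y62E10A.20/Y62E10A.23 and F57C2.5/spat-1. The former had signal 26.5 in replicate 1, at rank 2557, and 71.9 in replicate 2, at rank 114. The latter had 27.1 at rank 2309 and 57.1 at rank 181. These 2 pairs were singled out after their values had been seen. Both had low signal in replicate 1 only.

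Of the 15 called members of highest signal, those with genes for metabolic or mitochondrial proteins are given first. The strongest was ears-2/uncp-18, with joint signal 311, 167 in replicate 1 and 141 in replicate 2, and its summit was 11 bp upstream of ears-2 and 81 bp upstream of uncp-18. The gene ears-2 encodes a glutamyl-tRNA synthetase of mitochondria. Next came mlcd-1/idhg-1 with 272, 150 and 121, the summit 620 bp from mlcd-1, a malonyl-CoA decarboxylase gene, and 47 bp from idhg-1, a subunit gene of isocitrate dehydrogenase. These 2 were the only members among the 25 strongest regions of the reduced list. At nmad-1/hach-1 the values were 227, 125 and 99.1. The hach-1 product acts in valine breakdown, and nmad-1 encodes a DNA demethylase of the AlkB family. At dnj-29/ndua-2, a pair with a J-domain protein and a subunit of respiratory complex I, the values were 195, 98.97 and 98.93. The mig-22/mtss-1 region had 145, 72.6 and 68.2, and mtss-1 encodes a single-stranded DNA-binding protein of mitochondria, whereas mig-22 acts in chondroitin synthesis. The values for dad-1/tre-1 were 147, 71.2 and 73.4, and its summit lay inside the noncoding gene F57B10.17. The gene tre-1 encodes a trehalase and dad-1 a subunit of the oligosaccharyltransferase that glycosylates proteins.

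Pairs with genes of RNA metabolism or chromatin follow. The ecps-1/atx-2 region had joint signal 229, with 116 in replicate 1 and 113 in replicate 2, and its summit was 82 bp upstream of atx-2, which encodes the RNA-binding protein ataxin-2, and 756 bp from ecps-1. At Y71G12B.30/chaf-2, whose plus-strand gene encodes a subunit of chromatin assembly factor 1, the values were 147, 79.9 and 68.6. At snx-13/snr-1, a sorting nexin gene and a gene for an Sm protein of the spliceosome, they were 137, 90.1 and 45.6. The last of these ranked 71 in replicate 1 and 271 in replicate 2, both among the 354 highest.

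The spe-48/Y51F10.11 region, beside a gene needed for sperm function, had joint signal 214, with 115.4 in replicate 1 and 95.4 in replicate 2. B0495.9/sre-1 had 197, 98.8 and 97.8, and its summit was 84 bp from B0495.9 and 910 bp from sre-1, a chemoreceptor gene. The E04F6.6/pcrg-1 region had 196, 105 and 89.8, the summit 681 bp and 303 bp from the genes and inside mrpr-1. For the last of these, the coding genes were thus farther away than an annotated noncoding gene. The remaining 3 of the 15 were rnf-121/C16C10.4 (joint signal 192), Y41D4A.6/Y41D4A.4 (143) and fbxb-85/hex-3 (142), with replicate 1 values of 95.5, 79.4 and 75.4 and replicate 2 values of 96.4, 57.7 and 62.7. Of these, rnf-121 encodes a RING-finger protein, fbxb-85 an F-box protein and hex-3 a hexosaminidase.

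The called members of lowest signal and the other members of highest signal lay close together. The lowest called were F49C12.9/rpn-7 (79.1), Y116A8C.9/arf-6 (79.2) and ril-1/hda-1 (80.2), which include genes for a proteasome subunit, a small GTPase and a histone deacetylase. The strongest of the others were mel-46/lsy-13 (75.5), aman-2/F58H1.3 (74.5) and W04C9.6/W04C9.2 (72.6). The gene mel-46 encodes an RNA helicase and aman-2 a mannosidase of the Golgi. In replicate 1 the 3 called pairs had 39.9, 35.7 and 41.6, and the 3 others 33.9, 29.2 and 24.0. In replicate 2 they had 30.8, 41.9 and 34.0, and 42.1, 45.2 and 52.8, so the order of these 6 regions differed between replicates.

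The 455 members held 908 genes, of which 106 (11.7%) were at a called region, and gene lists were read against that share. No test was run on the lists, and they are not complete. The chromatin list leaves out chaf-2 and the membrane traffic list the sorting nexin gene snx-13, both at a called region. The respiratory chain list leaves out nduc-2, which was not at one. Genes missing from a list can thus make its share too low or too high. Chromatin genes had 3 of 14 at a called region (21.4%): lin-35, the Retinoblastoma homologue, beside vps-51 (joint signal 129), the chromodomain gene mrg-1 beside spcs-2 (106), and hda-1 beside ril-1 (80.2). Membrane traffic genes had 3 of 16 (18.8%), vps-51 of a tethering complex, apb-1, an adaptin gene, beside mdt-19 (125), and arf-6. Histone genes had 2 of 8 (25%), the single pair his-67/his-68 (90.8), whose values are uncertain where reads were shared with near-identical histone copies. Nuclear transport genes had 2 of 12 (16.7%), the importin alpha gene ima-1 beside dvc-1 (108) and the nuclear pore gene npp-14 beside cel-1 (93.8). Chemoreceptor genes had 3 of 24 (12.5%), among them sre-1 and sri-5, which lay beside rsr-1 (128).

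Lists of housekeeping genes lay on both sides of the share of all genes of the pairs. Cytosolic ribosomal protein genes had 1 of 18 at a called region (5.56%), rpl-15 beside K11H12.8 (joint signal 86.8), with a snoRNA gene 570 bp from the summit, just outside the limit of 500 bp. Splicing and RNA processing genes had 1 of 20 (5.00%), snr-1, and respiratory chain genes 1 of 13 (7.69%), ndua-2. The list of DNA replication and cell cycle genes had 1 of 14 (7.14%), cdk-9 beside hxk-2 (119). That list holds cdk-9 although the gene encodes a kinase of transcription elongation. Mitochondrial ribosomal protein genes had 1 of 13 (7.69%), mrpl-45 (86.2). Smaller lists with 1 each were above that share: ears-2 of 4 aminoacyl-tRNA synthetase genes (25%), rpn-7 of 5 proteasome genes (20%), and erfa-3, a termination factor gene (110), of 6 translation factor genes (16.7%). The same held for mdt-19, a Mediator subunit gene, of 5 polymerase and general transcription factor genes (20%), and nhr-142 (82.8) of 3 nuclear hormone receptor genes (33.3%). None of the 1 homeobox, 3 neuropeptide or insulin-like, 1 cuticle collagen and 3 signalling genes was at a called region, and no Pax gene was in any pair. Counts this small do not separate a list from the share of all genes.

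The second comparison asked which short sequences distinguished called from other windows. Each of 2037 words of 6 bases was tested with its complement, the window's GC content being a covariate, and 12 (0.589%) were more frequent in called windows and 0 (0%) were less frequent, at a Benjamini-Hochberg adjusted p under 0.05 by binomial regression. At an unadjusted p under 0.05, 84 were more and 133 less frequent. The smallest adjusted p among the less frequent words was 0.0536 (binomial regression), just above the threshold. The strongest, GCCGCA, was in 20 of 53 called windows (37.7%, interval 24.8 to 52.1%) and 23 of 402 others (5.72%, interval 3.66 to 8.46%), with an odds ratio of 7.09 (interval 3.403 to 14.8, adjusted p = 0.000807, binomial regression). By the same binomial regression GGCGGA was in 32.1% and 5.97% (odds ratio 5.70, adjusted p = 0.00895) and TTGCAA, its own complement, in 35.8% and 10.9% (odds ratio 4.55, adjusted p = 0.0107). Next came GCACGC with an odds ratio of 5.397, CCGCAC with 5.31, CGCCGC with 5.43, TGCAAA with 3.80 and CCGCCC with 4.19, at adjusted p from 0.0107 to 0.0279. The last 4 were GCGCAC (odds ratio 3.78), TCGCAA (4.15), CGCAAG (4.68) and GTTGCA (5.09), with adjusted p from 0.0279 to 0.0327. Many of the 12 overlap one another, so they are not 12 separate sequences. At least 1 of them was in 47 of 53 called windows (88.7%) and in 213 of 402 others (53.0%), with medians of 4 and 1 distinct words per window, which is a description since the same windows chose the words.

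With a promoter reach of 500 bp, 0 of 1811 words passed (binomial regression, 36 called and 233 other windows, 58 more and 83 less frequent at an unadjusted p under 0.05), and GCCGCA had an odds ratio of 5.27 with an adjusted p of 0.233 there. The number of more frequent words was 30 without replicate 1 and 5 without replicate 2, with the 354 highest regions of the remaining list as called. It was 6 when calls were kept to the 177 strongest regions of the optimal list. With those, in 27 called windows, GGCGGA had an odds ratio of 9.64 (adjusted p = 0.00504, binomial regression). In the binomial regression TTGCAA lost its call in the windows of 150 bp on each side (odds ratio 2.95, adjusted p = 0.0569), with those 177 regions (4.14, adjusted p = 0.387) and without replicate 2 (4.10, adjusted p = 0.0529).

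**Figure D4:**
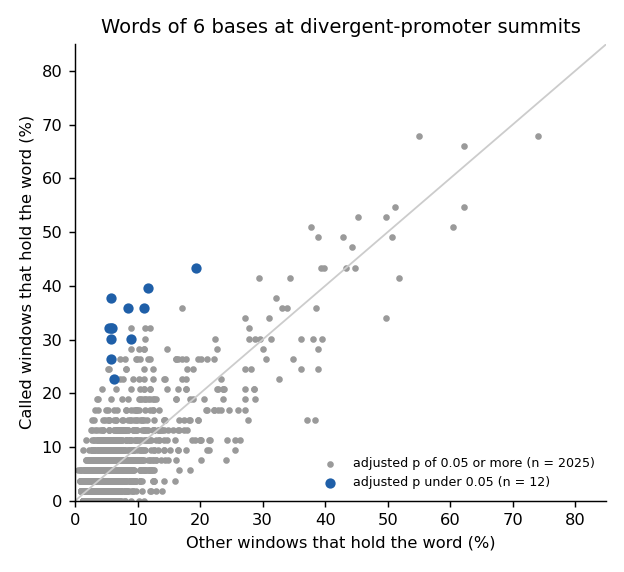
Percent of other windows (horizontal axis) and of called windows (vertical axis) that held each of 2037 words of 6 bases, with a line of equal shares. The 12 words with an adjusted p under 0.05 (blue) all lie above the line, and GCCGCA is at 5.72% of other and 37.7% of called windows.

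TCACGC, a word found in binding sites of paired domains, was in 1 of 53 called windows (1.89%) and 19 of 402 others (4.73%), with an odds ratio of 0.280 whose interval ran from 0.0351 to 2.24 (adjusted p = 0.618, binomial regression with the same covariate). The word did not pass, and the interval holds both lower and moderately higher odds. It overlaps the interval of GCGCAC (1.97 to 7.26), 1 of the 12 words, and TCACGC was not tested against them. The odds ratio ranged from 0.264 to 0.682 over 9 alternative settings, with adjusted p from 0.566 to 0.881. At one-way promoters TCACGC went the other way, in 4 of 50 called windows (8%) and 52 of 1894 others (2.75%). That difference was not tested. GTTCGA, a word of the internal promoter of tRNA genes, was in 2 called windows (3.77%) and 22 others (5.47%, adjusted p = 0.926, binomial regression). The same test gave no call for GAGAGA (15.1% and 14.4%), TATAAA (9.43% and 16.4%), CACGTG (3.77% and 2.74%), GATAAG (3.77% and 2.99%) or TAATTA (5.66% and 6.47%), with adjusted p from 0.786 to 0.996. CCAATC was in 1.89% of called and 4.98% of other windows, GGCGGG in 16.98% and 4.98%, GCGCGC in 26.4% and 9.70%, and the run TTTTTT in 66.0% and 62.2%, with adjusted p from 0.352 to 0.533.

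In the first 3 of the stretches printed above, GCAA stood a few bases before GCCGCA on 1 of the strands. After this had been seen, GCAA followed on the same strand by GCCGCA was counted at every spacing from 0 to 20 bases. A spacing of 4 bases occurred in 13 of 53 called windows (24.5%, interval 13.8 to 38.3%) and in 2 of 402 others (0.498%, interval 0.0603 to 1.79%). Spacings of 2 to 4 bases occurred in 15 called windows (28.3%, interval 16.8 to 42.3%) and 5 others (1.24%, interval 0.405 to 2.88%). GCAA by itself was in 90.6% of called and 80.3% of other windows. Among all 9157 autosomal windows away from small RNA genes, 67 (0.732%) held the words joined at 2 to 4 bases and 410 (4.48%) held GCCGCA. The pattern was defined on the divergent windows, so no test was run on them.

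One-way promoters were not used to define the pattern, although the same libraries gave their regions. There the joined words were in 8 of 50 called windows (16%, interval 7.17 to 29.1%) and 15 of 1894 others (0.792%, interval 0.444 to 1.30%). Given the GC content of the window, the odds ratio was 16.3 (interval 6.43 to 41.1, likelihood-ratio test of a binomial regression over regions, two-sided, p = 6.38e-07). GCCGCA by itself had an odds ratio of 5.53 at one-way promoters in the same binomial regression (interval 2.78 to 11.02, p = 1.21e-05). At regions with no promoter the joined words were in 1 of 27 called windows and 23 of 6731 others (0.342%).

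**Figure D5:**
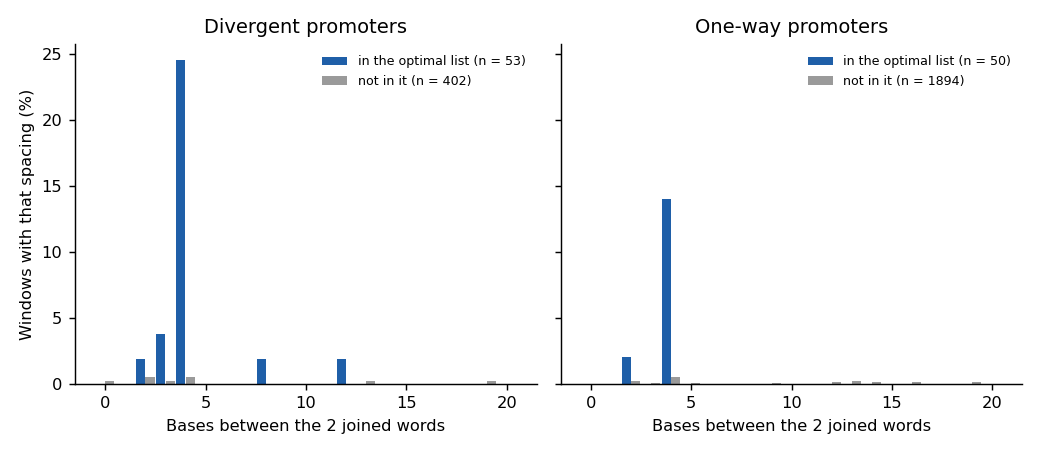
Percent of windows (vertical axis) in which GCAA preceded GCCGCA on the same strand at each spacing from 0 to 20 bases (horizontal axis), for called (blue) and other (grey) regions at divergent promoters (left) and one-way promoters (right). The bar for called regions at 4 bases reaches 24.5% on the left and 14% on the right, against 0.498% and 0.528% for the others.

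The 15 called members with the joined words had joint signals from 80.2 to 311 with a median of 119, and the 38 without them from 79.1 to 227 with a median of 117. Their median GC contents were 44.4% and 42.4%, and their median gaps 528 and 514.5 bp. Of the 15 called members of highest signal, 6 had the words: ears-2/uncp-18, mlcd-1/idhg-1, ecps-1/atx-2, spe-48/Y51F10.11, dnj-29/ndua-2 and mig-22/mtss-1. They were also at hxk-2/cdk-9, erfa-3/math-33, dvc-1/ima-1 and ril-1/hda-1, among members of lower signal. Of the 5 other members with them, mel-46/lsy-13 (75.5) had the highest joint signal among all other members.

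The pattern was picked from stretches within 75 bp of called summits, which in part fixes where its sites lie in called members, so their positions are a description. Within 225 bp of the summit, 16 called members held 18 sites, whose centres were a median of 18.5 bp from the summit, with 17 of 18 within 75 bp and the farthest, at F49C12.9/rpn-7, 77.5 bp away. In 11 other members, 13 sites were a median of 73.5 bp from the summit, with 7 of 13 within 75 bp and the farthest 198.5 bp away. In the called members 13 sites were on the minus strand and 5 on the plus strand. The spe-48/Y51F10.11 and fbxc-44/C16A11.2 regions each held 2 sites.

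Read the other way, from the genome to the regions, the autosomes held 57 sites of the joined words at divergent promoters away from small RNA genes. A called summit was within 75 bp of 17 of them (29.8%, interval 18.4 to 43.4%), and another region's summit of 7 (12.3%). At one-way promoters 8 of 204 sites (3.92%, interval 1.71 to 7.58%) were at a called summit, and away from promoters 1 of 615 (0.163%, interval 0.00412 to 0.903%). Another region's summit was within 75 bp of 16 one-way sites (7.84%) and 23 sites away from promoters (3.74%), and the remaining sites had no summit of the reduced joint list that near. The share at divergent promoters rests on the windows that defined the pattern, so the 3 shares were not tested against each other. No stretch of 20 bases was shared by 2 or more called windows.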

How the data were processed

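Members, gene lists and words were chosen with earlier results of these data known. The pattern of joined words was defined after the word test had been seen. The authors deposited lists of regions on ce11 for each replicate, for both replicates together (pooled) and, thresholded on the irreproducible discovery rate, as an optimal list, per the deposited file descriptions. Each region's signal is the value of the authors' peak caller against a control, and the deposited summit offset gives its position. No source used here names the aligner, the caller, the threshold or the scale of the signal. The files hold no read counts, so depth is unknown, and signals were compared only within a list.

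Regions were reduced by keeping the strongest of any that overlapped, and a replicate's value is that of its strongest overlapping region. Genes came from the Ensembl release 115 annotation of WBcel235, the assembly of ce11, with 1 symbol among the 908 genes taken from RefSeq. Sequences came from RefSeq WBcel235. Words of 6 bases, both strands joined, were counted in windows of 151 bp and tested when at least 5 windows held them. Called and other regions were compared by binomial (logistic) regression with likelihood-ratio tests, and shares have 95% Clopper-Pearson intervals, which cover counting error only. The statistics were tested on simulated data. Named pairs were the 15 called members of highest signal, the 3 called of lowest and the 3 other of highest signal, and up to 3 genes per list with the strongest called region. Named words were the 8 strongest that passed in a direction and 11 words of known elements or simple composition, and the 4 further words that passed were added. Alternatives were another promoter reach, kept overlaps, another distance to small RNA genes, each replicate alone, the 177 strongest regions of the optimal list, 5′ ends of all coding transcripts, a wider window and other covariates. For a replicate alone, members came from its own list. Its 354 highest regions by signal counted as called, so the optimal list was not used there. The ce10 lists were not used. Tables and fits were made in Python 3.11.15 (pandas 2.3.3, numpy 2.4.6), intervals with scipy 1.17.1 and figures with matplotlib 3.10.9.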

Additional observations from a re-analysis of the deposited data

How the results depend on the processing

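The odds ratio of divergent against one-way promoters kept its direction and its side of the threshold under all 8 alternatives (3.23 to 7.48), and so did GC content as a feature under its 7 (1.91 to 2.33 per 10 points). The share called was 6.29% with the 177 strongest regions of the optimal list, which leaves out the rest of the list by construction. Settings without a replicate took the 354 highest regions of the remaining list as called, not the optimal list. More features than the 1 passed in other settings: 3 with GC content as covariate (GC content itself, fitted without it, the distance from the midpoint and the CpG ratio), 2 each with 500 bp upstream, with overlapping regions kept and with the 5′ ends of all coding transcripts (GC content and the distance from the midpoint), and 4 to 5 without a replicate. More frequent words numbered 12 as reported, 29 with no GC covariate, 0 with 500 bp upstream (36 called windows), 6 with those 177 regions and 5 to 30 without a replicate. Less frequent words numbered 3 with no GC covariate, 1 with all coding transcripts and 0 to 3 without a replicate. Directions turned, with no call in either setting, for a noncoding gene within 500 bp (odds ratios 0.982 with GC content as covariate and 0.830 with 500 bp upstream) and, with 500 bp upstream, for the distance to the nearer 5′ end (1.30) and the gap (1.06). Why these values moved was not tested. The joined words were in 22.2 to 30.4% of called and 1.10 to 1.72% of other windows over 7 alternatives. The pattern was defined on divergent windows that these settings reuse, so these shares are a description. Depth is unknown, the lists hold 1 condition and 2 replicates, and regions are not replicates. No paired analysis was possible because the samples form a single group.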
